A study of Mus musculus with 10 samples.

Results

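Negative feedback on extracellular signal-regulated kinase (ERK) signaling was examined through 10 genes: the MAP kinase phosphatases Dusp1, Dusp4, Dusp5 and Dusp6, the Sprouty genes Spry1, Spry2 and Spry4, the Spred genes Spred1 and Spred2, and the immediate early gene Ier2. They were chosen by gene name from the 24391 gene names in the count tables, and all 10 had enough counts to be tested. The choice was made with earlier results of the comparison of SAH with control in these same mice known. The values of SAH against control, Sham or Naive mice are therefore given as a description. The members called in the tests across all genes are counted in them, but nothing is read from those counts or from their stability, since the same mice stood behind the choice. Ier2 codes for a nuclear protein that is not a phosphatase and not a Sprouty or Spred inhibitor, and it stands among these genes as a rapidly induced target of the same signaling.

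The hippocampi came from male C57BL/6J mice (the methods print C56BL/6J), 10 to 14 weeks old, and both whole hippocampi of a mouse gave 1 library. SAH mice (n = 4, mice 1 to 4) had a subarachnoid hemorrhage induced on a single side with a filament that pierced the circle of Willis, the arterial ring at the base of the brain. Sham mice (n = 3, mice 5 to 7) had the same operation with the artery left intact, and Naive mice (n = 3, mice 8 to 10) had no operation. Tissue was taken at 4 days. Operations were done under isoflurane, all mice were euthanized with CO2, and only SAH mice with a large drop in cerebral blood flow at perforation entered the study. Sham and Naive mice are together called control (n = 6).

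ERK is the last kinase of a cascade that runs from growth factor and neurotransmitter receptors through Ras, Raf and MEK to the nucleus. Active ERK switches on genes whose products shut the cascade down again. Dual-specificity phosphatases remove the activating phosphates from ERK itself or from its relatives p38 and JNK, while Sprouty and Spred proteins act upstream, on the step from the receptor to Ras and Raf. In hippocampal neurons the same cascade is engaged by synaptic activity and is known for its part in memory, and several of these genes are induced within minutes to hours of activity.

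The regulatory sequence before the start is shown for 3 of the phosphatase genes, Dusp1, Dusp5 and Dusp6. These are the phosphatase genes described here whose promoter was matched by symbol, and that of Dusp4 was not. A link between these sequences and the levels in SAH mice was not tested. Each line runs 5′ to 3′ in the direction of the gene, from 250 bases before to 50 bases after the start site in RefSeq on GRCm38.p6, with matches to the searched motifs in capitals. Dusp1 lies at chr17:26508423-26508722 (minus strand), Dusp5 at chr19:53528895-53529194 (plus strand) and Dusp6 at chr10:99262981-99263280 (plus strand).
Dusp1: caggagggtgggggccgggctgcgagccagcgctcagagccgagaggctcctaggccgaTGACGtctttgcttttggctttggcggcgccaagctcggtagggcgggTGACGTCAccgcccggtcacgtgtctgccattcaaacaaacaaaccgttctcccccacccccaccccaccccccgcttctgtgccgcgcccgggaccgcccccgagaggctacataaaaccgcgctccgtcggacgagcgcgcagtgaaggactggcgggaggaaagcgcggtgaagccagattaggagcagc
Dusp5: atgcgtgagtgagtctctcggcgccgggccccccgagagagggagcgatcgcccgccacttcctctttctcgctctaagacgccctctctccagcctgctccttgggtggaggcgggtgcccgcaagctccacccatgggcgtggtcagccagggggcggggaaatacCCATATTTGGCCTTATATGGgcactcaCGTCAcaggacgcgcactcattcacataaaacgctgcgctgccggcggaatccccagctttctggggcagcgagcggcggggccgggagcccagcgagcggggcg
Dusp6: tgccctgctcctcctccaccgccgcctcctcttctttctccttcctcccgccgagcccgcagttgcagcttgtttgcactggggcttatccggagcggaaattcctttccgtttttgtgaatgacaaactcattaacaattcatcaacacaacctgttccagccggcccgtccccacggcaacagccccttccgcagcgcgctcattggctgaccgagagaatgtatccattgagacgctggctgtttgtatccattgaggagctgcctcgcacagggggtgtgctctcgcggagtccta

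In the Dusp1 promoter, the window held 1 cAMP response element (TGACGTCA), the palindrome recognized by CREB, from 143 to 136 bases before the start. It also held a separate copy of the shorter element TGACG from 191 to 187 bases before the start, and the full element itself contains the shorter element on both strands. The Dusp5 window held 2 CArG boxes, the kind of site recognized by serum response factor, side by side from 82 to 73 and from 72 to 63 bases before the start, and a TGACG element from 55 to 51. In the Dusp6 window 0 matches were found. Both strands were searched in 32817 promoters of the same length. Of these, 1.79% held TGACGTCA, 20.8% TGACG, 1.63% a CArG box, 14.9% the ETS element CCGGAA, 7.81% the AP-1 element TGANTCA and 5.56% the EGR element GCGNGGGCG. These shares were not matched for base composition. The median share of G and C over all promoters was 52.7%, and the windows of Dusp1, Dusp5 and Dusp6 had 67.0%, 66.7% and 57.3%. Promoters of 7 of the 10 genes were matched by symbol, and those of Dusp4, Spry4 and Ier2 were not. Among the other matched genes, Spry2 held CCGGAA from 34 to 39 bases into the transcript, Spred2 held TGACG from 51 to 47 bases before the start, and Spry1 and Spred1 held 0 matches. A match to letters is a description of the sequence, and binding was not measured.

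The counts that the authors deposited summed to between 19743388 and 27254655 per mouse, and levels are given as CPM, each count divided by the TMM-adjusted size of its library. Between 69 (Ier2 in SAH mouse 3) and 3850 (Spred1 in Naive mouse 8) counts stood behind a member's value. Over all genes SAH mouse 3 stood apart, with a chi-square per degree of freedom of 14.7 to 18.5 against the other SAH mice, where other pairs within a group had 3.94 to 10.3. Gene coordinates are those of mm9, and no exon of a member overlapped an exon of another gene name. Of the 8 oligodendrocyte markers, 8 were called lower in SAH, with summed levels of 4905 to 6260 CPM in SAH and 7237 to 9999 CPM in control mice. The 8 excitatory neuron markers had a median log2 fold change of −0.0069 with 0 called, and the 7 dentate granule cell markers summed to 415 to 601 CPM over the 10 mice, with 1 called higher in SAH (C1ql2, 0.34). Markers of other cells were also called higher in SAH, 6 of 7 for meningeal fibroblasts (98.5 to 179 CPM summed in SAH and 90.7 to 124 CPM in control mice), 3 of 6 for mural cells (100.5 to 146 and 78.3 to 94.7 CPM), 2 of 7 for endothelium (129 to 250 and 116 to 161 CPM) and 2 of 7 for microglia (390 to 474 and 361 to 404 CPM). Of the 7 astrocyte markers 1 was called higher (Gfap, log2 fold change 1.00), and of the 7 inhibitory neuron markers 1 lower (Sst, −0.27). The 8 choroid plexus markers, led by Ttr, summed to 1236 and 867 CPM in SAH mice 3 and 4 and to 832 CPM in Sham mouse 7, against 44.3 to 217 CPM in the other 7 mice. The part of these cells in the values below was not tested, and in bulk tissue fewer cells of a type and less RNA per cell cannot be told apart.

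All 10 genes had a negative log2 fold change in SAH against control, with a median of −0.26, beside −0.0024 over all 14993 genes tested, of which 50.9% were negative. By edgeR's quasi-likelihood test at an adjusted p under 0.10, 4 were called lower (Dusp1, Dusp6, Spry4 and Ier2) and 0 higher, where 1.54% of all genes were called lower and 3.13% higher. DESeq2 called the same 4 genes lower, and 2.65% of all genes. In these 4 genes every SAH mouse lay below every control mouse, as in 2.37% of all genes. The genes were chosen with this contrast known, so these counts are a description.

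**Figure D1:**
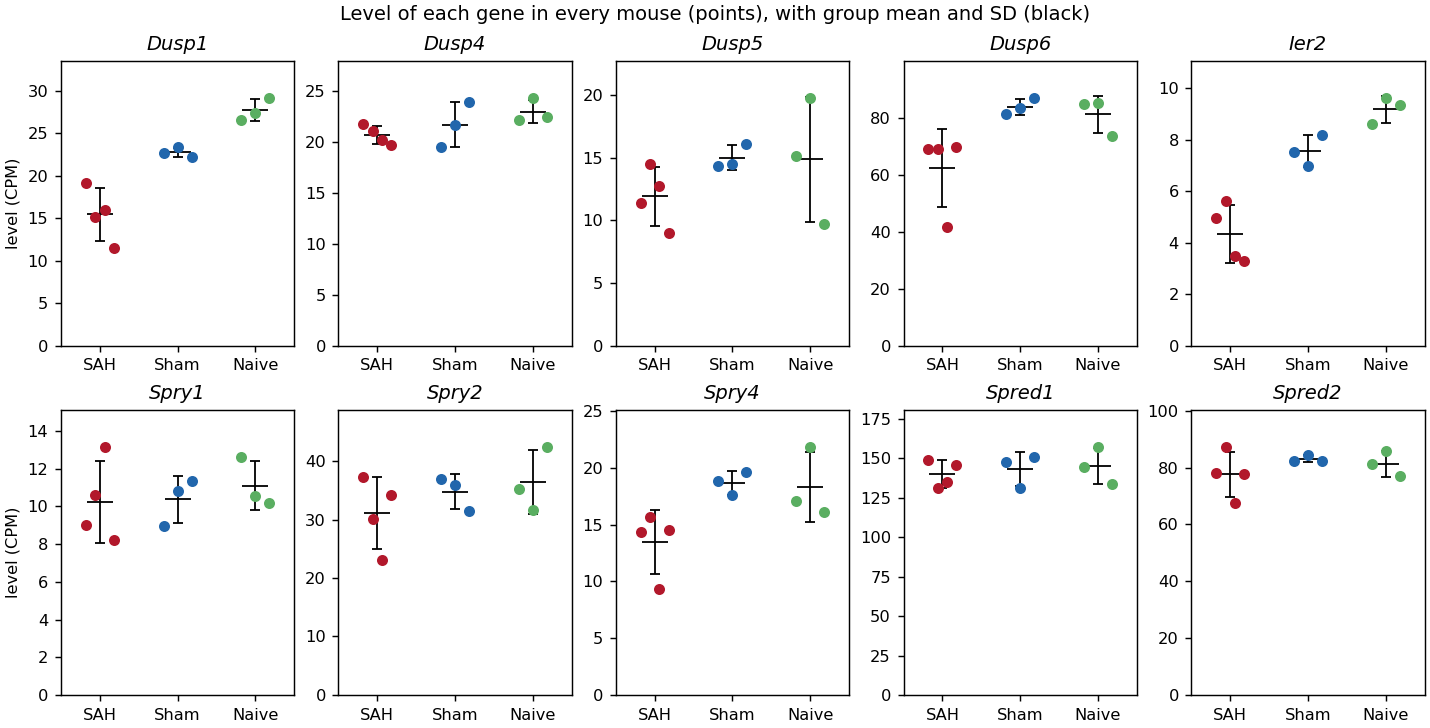
Level of each gene in CPM (vertical axes, from 0) in the 4 SAH, 3 Sham and 3 Naive mice, 1 point per mouse, with the group mean and SD as black bars. The SAH points of Dusp1, Dusp6, Spry4 and Ier2 lie below all control points, and those of the other 6 genes overlap them.

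Dusp1 (chromosome 17, 26642536 to 26645417, minus strand) codes for a nuclear phosphatase of p38, JNK and ERK and is itself an immediate early gene. Its levels in SAH mice 1 to 4 were 19.1, 15.1, 16.0 and 11.6 CPM. In the control mice they ran from 22.2 CPM through a median of 24.9 CPM to 29.1 CPM. The groups did not overlap, with an SAH mean of 15.4 ± 3.11 CPM (SD, n = 4) set against 25.2 ± 2.84 CPM in control (SD, n = 6). The fitted log2 fold change was −0.71 ± 0.12 (SE, 95% interval −0.97 to −0.45), a change of −39.0%. The log2 fold change was −0.56 against Sham and −0.85 against Naive mice. In SAH against control it ran from −0.83 to −0.59 as single mice were omitted, and it was −0.60 without the 3 mice high in choroid plexus genes.

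Ier2 (chromosome 8, 87185230 to 87186751, minus strand, a single exon) was the least abundant of the 10 genes in CPM. SAH mice 1 to 4 had 4.98, 5.63, 3.49 and 3.28 CPM. Control mice had from 6.99 through a median of 8.41 to 9.62 CPM. Here too no SAH mouse reached the lowest control mouse, and SAH mice 3 and 4 were lowest. The log2 fold change of −0.94 ± 0.15 (SE, 95% interval −1.27 to −0.61) corresponds to a change of −47.8% and was the largest of the 10. It was −0.79 against Sham and −1.07 against Naive mice, ran from −1.10 to −0.82 as single mice were omitted, and was −0.65 without the 3 mice high in choroid plexus genes.

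Dusp6 (chromosome 10, 98725865 to 98730123, plus strand) codes for a cytoplasmic phosphatase that prefers ERK. Its levels were 68.9, 69.2, 41.8 and 69.8 CPM in SAH mice 1 to 4. Control mice had from 73.7 through a median of 84.1 to 86.8 CPM. Of the SAH mice, 3 lay within 1 CPM of each other, just under the lowest control mouse (Naive mouse 10), and SAH mouse 3 lay far below them. The log2 fold change was −0.40 ± 0.11 (SE, 95% interval −0.64 to −0.15), a change of −24.2%, and without SAH mouse 3 it was −0.25. The call was kept without SAH mouse 1, 2 or 3 and lost without any of the other 7 mice, with values from −0.46 to −0.25.

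Spry4 (chromosome 18, 38745919 to 38760922, minus strand), a Sprouty inhibitor of receptor tyrosine kinase signaling to Ras and Raf, had the same lowest mouse. SAH mice 1 to 4 had 14.3, 15.6, 9.30 and 14.5 CPM. Control mice had from 16.1 through a median of 18.2 to 21.8 CPM. The highest SAH mouse and the lowest control mouse were less than 1 CPM apart, so the groups were separate but close. The log2 fold change was −0.45 ± 0.12 (SE, 95% interval −0.72 to −0.18), a change of −26.8%, and −0.31 without SAH mouse 3. The call was kept without SAH mouse 1, 2 or 3 or Naive mouse 10 and lost without any of the other 6 (range −0.53 to −0.31). Without the 3 mice high in choroid plexus genes, Spry4 was at −0.27 and lost its call, while Dusp6 was at −0.24 and kept it.

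**Figure D2:**
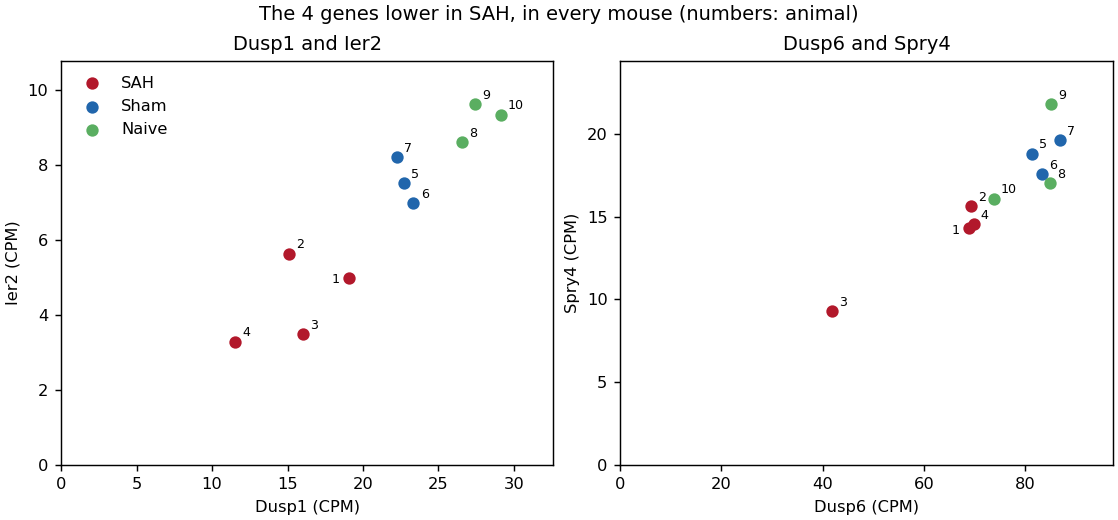
Levels in CPM of Dusp1 and Ier2 (left) and of Dusp6 and Spry4 (right) in each of the 10 mice, colored by group and numbered by mouse, with both axes from 0. SAH mice 3 and 4 are lowest in Ier2, and SAH mouse 3 is far below the rest in Dusp6 (41.8 CPM) and Spry4 (9.30 CPM).

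The SAH mice were thus ordered differently by different genes. SAH mouse 3 was the lowest of all 10 mice in Dusp6, Spry2, Spry4 and Spred2 and the highest in Spry1, and SAH mouse 4 was the lowest in Dusp1, Dusp5, Spry1 and Ier2. The same 2 mice had the most choroid plexus RNA of the SAH mice, as given above, and SAH mouse 4 also had the lowest oligodendrocyte sum (4905 CPM) and the highest endothelial (250 CPM), mural cell (146 CPM) and microglial (474 CPM) sums of the 10 mice. The part of these differences in the members' values was not tested.

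The other phosphatases overlapped between SAH and control. Dusp5 (chromosome 19, 53603808 to 53615812, plus strand), a nuclear phosphatase selective for ERK, had 11.4, 14.5, 12.8 and 8.99 CPM in SAH mice 1 to 4. Control mice had from 9.72 through a median of 14.8 to 19.7 CPM, both extremes being Naive mice. The log2 fold change was −0.32 ± 0.16 (SE, 95% interval −0.68 to 0.033), and it was −0.20 without SAH mouse 4 (range −0.44 to −0.20 as single mice were omitted) and −0.16 without the 3 mice high in choroid plexus genes. Dusp4 (chromosome 8, 35870664 to 35882948, plus strand), a nuclear phosphatase related to Dusp1, had 21.7, 21.1, 20.2 and 19.7 CPM in SAH mice and from 19.5 to 24.3 CPM in control mice. Its log2 fold change of −0.11 ± 0.066 (SE, 95% interval −0.25 to 0.031) was small beside that of Dusp1, ran from −0.15 to −0.086 as single mice were omitted and was −0.037 without the same 3 mice.

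The remaining Sprouty and Spred genes also overlapped. Spry2 (chromosome 14, 106291164 to 106296036, minus strand) had 37.3, 30.2, 23.0 and 34.2 CPM in SAH and from 31.5 to 42.4 CPM in control mice, a log2 fold change of −0.19 ± 0.12 (SE, 95% interval −0.44 to 0.058) that was −0.074 without SAH mouse 3 (range −0.28 to −0.074 as single mice were omitted). Spry1 (chromosome 3, 37538869 to 37543521, plus strand) had 8.99, 10.6, 13.1 and 8.19 CPM in SAH and from 8.96 to 12.6 CPM in control mice, with a log2 fold change of −0.076 (−0.21 without SAH mouse 3 and 0.018 without SAH mouse 4). Spred1 and Spred2, code for proteins that bring neurofibromin to Ras, and Spred1 had the highest CPM of the 10 genes. Spred1 (chromosome 2, 116946807 to 117008013, plus strand) had 131 to 149 CPM in SAH and 131 to 157 CPM in control mice. The log2 fold change of −0.042 had a 95% interval from −0.16 to 0.078 and ran from −0.073 to −0.011 as single mice were omitted. For Spred2 (chromosome 11, 19824445 to 19922600, plus strand) the levels were 67.6 to 87.2 CPM in SAH and 76.9 to 85.8 CPM in control mice, and the log2 fold change of −0.082 had a 95% interval from −0.21 to 0.045. It was −0.020 without SAH mouse 3, −0.14 without SAH mouse 2 and 0.012 without the 3 mice high in choroid plexus genes.

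Each kind of control was also compared with SAH on its own, in a fit of the 3 groups in which both comparisons share the SAH mice with the contrast known at the choice of the genes, so that these values too are a description. Against Sham, 2 members were called lower (Dusp1 and Ier2), where 0.200% of all genes were. Against Naive, the same 2 were called, where 0.940% of all genes were. All 10 log2 fold changes were negative in each, with medians of −0.24 and −0.27. Dusp6 had −0.42 against Sham and −0.38 against Naive mice, and Spry4 had −0.47 and −0.43, with neither past the threshold. Without SAH mouse 3 Dusp6 was called in both, where 49 and 158 of all genes were called lower, and Spry4 in neither. As single mice were omitted, Dusp1 against Sham ran from −0.68 to −0.45 and Ier2 from −0.95 to −0.67, and without the 3 mice high in choroid plexus genes they were at −0.44 each and not called. Of all genes 30 were called lower against Sham. Without SAH mouse 4, Sham mouse 6 or Sham mouse 7 it was 0 genes, without Sham mouse 5 it was 2 and without SAH mouse 1 it was 55, and the members' calls there are not read further. Of the fits with 1 mouse left out, Dusp1 was called against Sham in those without SAH mouse 1 or 3 and Ier2 in those without SAH mouse 1, 2 or 3, and neither in the others.

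**Figure D3:**
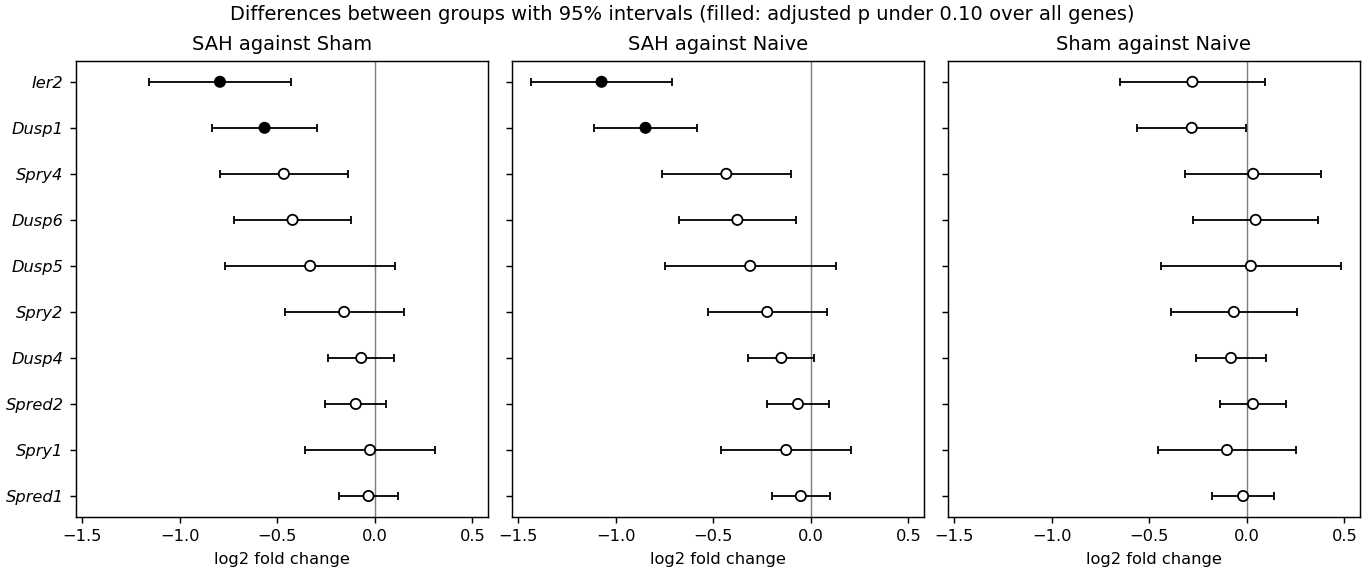
Log2 fold change of each gene (horizontal axis) with its 95% interval in the 3 pairwise comparisons, filled where the adjusted p over all genes was under 0.10. Ier2 and Dusp1 are filled in both comparisons with SAH, and 0 of 10 genes are filled in Sham against Naive, where Dusp1 has −0.28 and Ier2 −0.28.

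Sham against Naive asks what the operation without hemorrhage did, and it was not the contrast known when the genes were chosen. By edgeR's quasi-likelihood test 0 of the 10 genes were called, and by DESeq2 also 0, where edgeR called 0.00667% and DESeq2 0.0133% of all genes in either direction. At an unadjusted p under 0.05 edgeR had 1 of the 10, Dusp1, and 2.00% of all genes. Dusp1 had 22.7, 23.3 and 22.2 CPM in Sham and 26.6, 27.4 and 29.1 CPM in Naive mice. Its log2 fold change of −0.28 had a 95% interval from −0.56 to −0.0032 (edgeR, adjusted p = 1.00). Ier2 had 7.51, 6.99 and 8.21 CPM in Sham and 8.61, 9.62 and 9.34 CPM in Naive mice, and its log2 fold change of −0.28 had a 95% interval from −0.65 to 0.094 (edgeR, adjusted p = 1.00). In these 2 genes every Sham mouse lay below every Naive mouse, as in 4.17% of all genes. A difference between the control groups was thus not established for either gene. In both the order of the means was SAH, Sham, Naive, as it also was in Dusp4, Spry1, Spry2 and Spred1.

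For the other 8 genes the Sham and Naive mice overlapped, with log2 fold changes from −0.10 (Spry1) to 0.045 (Dusp6). The narrowest interval was that of Spred1, −0.18 to 0.14, and the widest that of Dusp5, −0.44 to 0.48. Dusp6 had a 95% interval from −0.28 to 0.37 and Spry4 from −0.32 to 0.38. Of the 10 log2 fold changes 6 were negative, with a median of −0.043, beside −0.0016 over all genes. Small values changed sign as single mice, or the 3 mice high in choroid plexus genes, were left out. Spry1 then ran from −0.17 to 0.0020, Dusp6 from −0.020 to 0.079 and Dusp5 from −0.21 to 0.27.

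Levels of different genes were compared per kilobase of exon (CPM per kb), on which scale the order was not used to choose them. In control mice Dusp6 was highest with 29.5 ± 1.68 CPM per kb (SD, n = 6), followed by Spred2 with 28.6 ± 1.08, Spred1 with 20.4 ± 1.41 and Spry2 with 17.0 ± 1.93. Dusp1 (13.0 ± 1.46) and Dusp5 (12.9 ± 2.80) came next, then Dusp4 (9.20 ± 0.706). Ier2 (5.50 ± 0.672), Spry1 (4.31 ± 0.486) and Spry4 (4.03 ± 0.448) were lowest. Of the 9 pairs of neighbors in this order, 6 differed at an adjusted p under 0.10 by a 2-sided exact permutation test of signs over the 6 mice, whose smallest p is 0.03125. Dusp6 and Spred2 were not told apart (exact permutation p = 0.125, adjusted over 9 pairs 0.161), nor were Dusp1 and Dusp5 (exact permutation p = 0.969) or Spry1 and Spry4 (exact permutation p = 0.375, adjusted 0.422). Spred2 exceeded Spred1 in 6 of 6 mice, by 0.49 on the log2 scale (exact permutation p = 0.03125, adjusted 0.0703). With 1 control mouse left out the number of pairs past the threshold was 0, or 7 without Naive mouse 10. Over all 10 mice it was again 6, but not the same pairs: Ier2 over Spry1 dropped out (adjusted exact permutation p = 0.982) and Spry1 over Spry4 came in (adjusted exact permutation p = 0.0762).

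**Figure D4:**
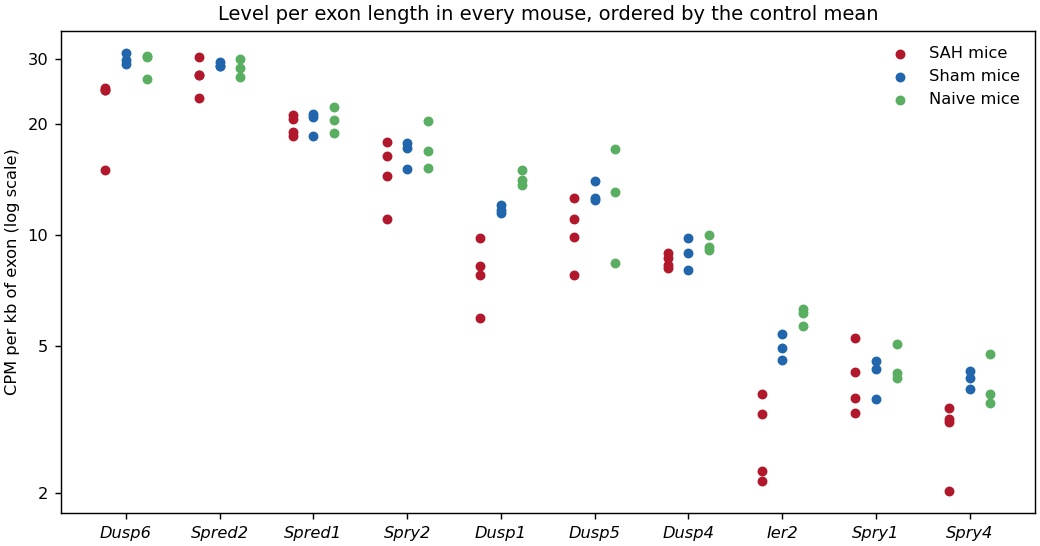
Level per kilobase of exon (CPM per kb, log axis) of each gene in every mouse, ordered from left to right by the control mean, with SAH, Sham and Naive mice side by side. Dusp6 and Spred2 are highest in control mice (29.5 and 28.6 CPM per kb) and Spry1 and Spry4 lowest (4.31 and 4.03 CPM per kb).

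In SAH mice the order of the mean levels per length differed in places from that in control mice, which was not tested. Dusp6 had 22.3 ± 4.92 CPM per kb (SD, n = 4) and Spred2 27.0 ± 2.78, so that Spred2 had the higher mean, in a pair not told apart in control mice. The mean of Ier2, 2.85 ± 0.752 CPM per kb, was below those of Spry1 (4.10 ± 0.874) and Spry4 (2.93 ± 0.616). That of Dusp1 (7.95 CPM per kb) was below that of Dusp4 (8.51 ± 0.372), though in SAH mouse 1 Dusp1 was higher (9.84 and 8.95). It was also below that of Dusp5 (10.3 ± 2.03), but in control mice Dusp1 exceeded Dusp5 in only 2 of 6.

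The rest of the pathway was taken from lists of named genes that were written with earlier results known. Over all genes 1.54% were called lower in SAH against control and 3.13% higher. Of the other 6 typical MAP kinase phosphatases tested, 1 was called lower in SAH against control and 0 higher, with a median log2 fold change of −0.032. That gene was Dusp16, a phosphatase of JNK and p38, with 13.4 ± 1.02 CPM in SAH (SD, n = 4) and 17.1 ± 1.25 CPM in control (SD, n = 6) and a log2 fold change of −0.35 (edgeR, adjusted p = 0.0212). Against Sham mice alone Dusp16 had −0.30 and was not called (edgeR, adjusted p = 0.211). It was called against Naive mice alone, with −0.40 (edgeR, adjusted p = 0.0364). Of the 9 other Sprouty, Spred and receptor-level inhibitors tested, 0 were called by edgeR's quasi-likelihood test, with a median of −0.064. Among the typical phosphatases, described and listed together, Dusp1, Dusp6 and Dusp16 were thus the ones called in SAH against control.

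Of 24 genes of the cascade itself 2 were called lower and 1 higher, where 1.54% and 3.13% of all genes were, with a median log2 fold change of 0.00026. Mapk3, which codes for an ERK kinase, had 162 ± 14.7 CPM in SAH (SD, n = 4) and 173 ± 5.67 CPM in control mice (SD, n = 6). Its log2 fold change of −0.094 was not called (edgeR, adjusted p = 0.39). The 2 lower genes were Nras, a Ras protein, with −0.24 (edgeR, adjusted p = 0.0661), and Gab1, a docking protein below receptor kinases, with −0.24. Gab1 was just past the threshold (edgeR, adjusted p = 0.0992). The higher one was Shc1, an adaptor between receptors and Ras, with 0.38 (edgeR, adjusted p = 0.0333). Against Sham mice alone Nras (−0.17), Gab1 (−0.26) and Shc1 (0.32) were not called. Against Naive mice alone Nras and Shc1 were called and Gab1 was not.

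Among 8 ERK-induced transcription factor and other target genes tested, Phlda1 was called lower (log2 fold change −0.45, edgeR, adjusted p = 0.0718) and 0 were called higher. Phlda1 was not called against Sham mice alone (−0.38, edgeR, adjusted p = 0.405) or Naive mice alone (−0.52, edgeR, adjusted p = 0.110). Of 7 genes for serum response factor and the factors that act with it, 0 were called, with a median of 0.090. Of 25 other immediate early genes 12 were called lower and 1 higher, where 1.54% and 3.13% of all genes were. Their median was −0.17, and 17 of the 25 had a negative log2 fold change. Of the genes called lower, the 6 with the largest differences were Egr2 (−2.00), Fos (−1.57), Npas4 (−1.33), Arc (−1.13), Egr1 (−0.93) and Egr4 (−0.87), which code for transcription factors induced by activity and, in Arc, for a synaptic protein. Against Sham mice alone, where 0.200% of all genes were called lower, all of these 6 but Arc were called (Arc −1.02, edgeR, adjusted p = 0.139). Not all of the other lower genes were called there. Fos had 6.77 to 16.7 CPM in SAH and 24.2 to 47.4 CPM in control mice, without overlap. Ier3, named after its value was seen, was the gene called higher, with a log2 fold change of 0.70 and 4.47 ± 0.488 CPM in SAH against 2.74 ± 0.595 CPM in control mice. Ier3 had 0.57 against Sham mice alone and was not called (edgeR, adjusted p = 0.264). The 12 lower immediate early genes ran from −2.00 to −0.44, a range bounded by the call itself. All 25 ran from −2.00 to 1.56 (Maff, not called). Ier2 had −0.94, Dusp1 −0.71, Spry4 −0.45 and Dusp6 −0.40, and nothing is read from where they lie in these ranges. Without the 3 mice high in choroid plexus genes, 8 genes of the 6 lists were called lower in place of 16, and 1 higher in place of 2, while all genes called lower went from 231 to 73 and those called higher from 470 to 257.

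**Figure D5:**
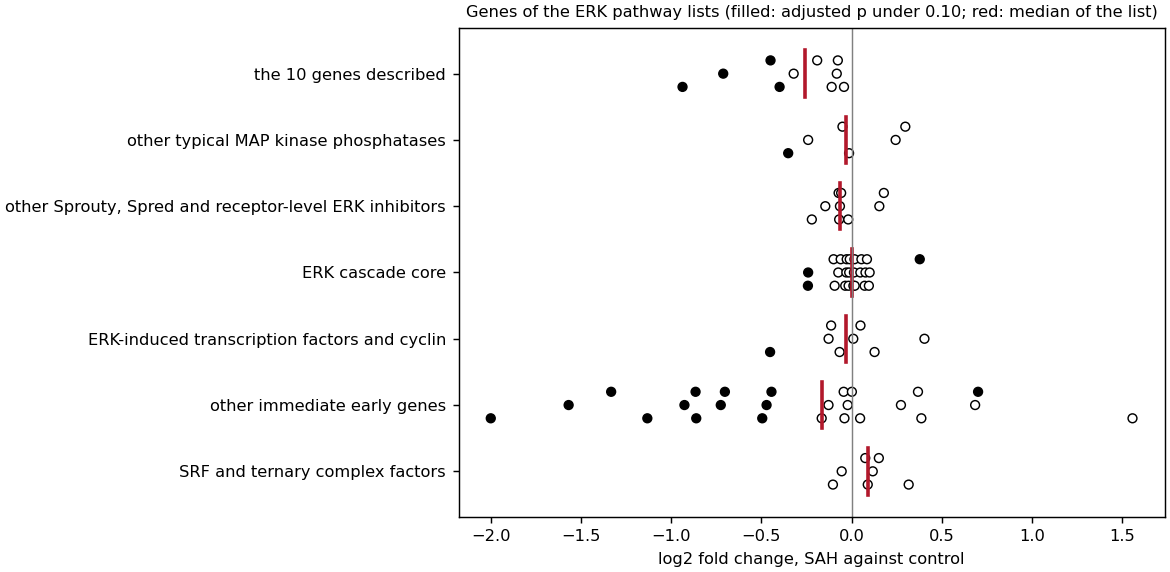
Log2 fold change in SAH against control (horizontal axis) of each tested gene of the 10 described and of the 6 pathway lists, filled where the adjusted p over all genes was under 0.10, with the median of a list as a red line. The filled points on the left are mostly immediate early genes, down to −2.00 (Egr2), and the ERK cascade core lies around 0 (median 0.00026).

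The genes whose levels followed each member most closely over the 10 mice were looked up among 13803 genes with a mean of at least 1 CPM, by Pearson's r of log2 CPM. These values are descriptions, since all 10 mice share the difference between groups and the oligodendrocyte difference given above. For Ier2 they were Sema6a, Junb and Mag (r = 0.98 each). Mag is one of the 8 oligodendrocyte markers, and Junb is one of the 12 lower immediate early genes. For Dusp1 they were Mta1, Shisa8 and Aatk (r = 0.95 to 0.96). For Dusp6 they were Zfp664, Shank1 and Mfap3 (0.97 to 0.98), and for Spry4 Sept8, Tmem151b and Nr4a3 (each 0.97). The closest genes of the other 6 members were Pitpnb, Rassf10 and Lrrn1 for Dusp4, Rftn1, Frat2 and Mcl1 for Dusp5, and Deaf1, Igdcc3 and 2410002F23Rik for Spry1. For Spry2 they were Tbr1, Sox2 and Mrrf, for Spred1 Rbm19, Ranbp9 and Cnih1, and for Spred2 Fip1l1, Ftsj3 and Zfp697. No gene was among the 3 closest of more than 1 member.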

How the data were processed

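Bilateral whole hippocampi of 10 mice were sequenced as stranded RNA libraries depleted of ribosomal RNA, with 1 library per mouse. Read pairs were aligned by the authors to mm9 with STAR and assigned to exons with featureCounts 1.6.2, and the deposited values are these raw counts per gene name. CPM, log2 fold changes and tests were computed here. Members and gene lists were chosen with earlier results of these data known. Counts were tested with edgeR 4.0.16 (R 4.3.3): TMM scaling, filterByExpr (at least 10 counts, total 15), quasi-likelihood fit, and Benjamini-Hochberg adjusted p under 0.10 over 14993 genes. SAH was compared with Sham and Naive pooled, and pairs of groups in 1 fit of all mice. SE was the absolute log2 fold change over the root of F, with t-based intervals. The code was tested on simulated data, and no libraries were duplicates. Genes named were the members, Mapk3, at most 6 called genes per list by size, and the 3 genes closest to each member, and a further gene of this rule is not reported here. Ier3, Maff and the marker genes were named after their values were seen. Alternatives were DESeq2 1.42.0, its size factors, library size alone, other filters, a robust fit, a threshold of 0.05, other controls, all 10 mice or a pseudocount of 0.1 for the order of levels, and each mouse left out. Leaving out the 3 mice highest in choroid plexus genes was added after the data were seen. Promoters came from RefSeq (GRCm38.p6). No batch is named in the labels.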

Additional observations from a re-analysis of the deposited data

Results flagged for a closer look

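The level of Dusp6 in SAH mouse 3, 41.8 CPM, lay far from the other 3 SAH mice, the nearest of which had 68.9 CPM, and the gap was most of the range of the group. Of the 10 genes, each looked at in the 4 SAH mice, this was the only value that stood so far apart, and chance alone flags about 1 in 20 such groups. That rate holds for separate groups, and the 10 genes were read in the same 4 mice. The same mouse was the lowest of the 10 mice in Spry2, Spry4 and Spred2, and had the highest sum of choroid plexus markers (1236 CPM). The library as a whole also stood apart from the other SAH mice. Without it the log2 fold change of Dusp6 was −0.25 in place of −0.40.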

How the results depend on the processing

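The number of members called lower in SAH against control was 4 and ran from 2 to 4 with each mouse left out, where 85 to 407 of all genes were called lower. It was 2 at an adjusted p under 0.05, 2 with Sham and Naive averaged in the fit of 3 groups, 2 with Naive mice alone as control and 0 with Sham mice alone. Of all genes 231 were called lower, and 92, 197, 81 and 0 in these settings, so that the 0 says nothing of the members. Library size alone and the robust fit left 3, without Dusp6 (198 and 229 of all genes). Against Sham the number ran from 0 to 3 with each mouse left out, where 0 to 55 of all genes were called lower, and was 0 without the 3 mice highest in choroid plexus genes (18 of all genes). Against Naive it ran from 2 to 3 (23 to 240 of all genes). For Sham against Naive it was 0 in every setting run. DESeq2 called 398 of all genes lower where edgeR called 231, and 4 genes of the pathway lists higher where edgeR called 2. Genes of these lists called lower ran from 10 to 16 and those called higher from 1 to 6 with each mouse left out. Without the 3 mice highest in choroid plexus genes 8 were lower and 1 higher. Pairs of neighbors past the threshold in the order of levels were 6, also over all 10 mice (with Spry1 over Spry4 in place of Ier2 over Spry1), and ran from 0 to 7 with each control mouse left out, where the smallest p of the exact test over 5 mice is 0.0625 before adjustment. No paired analysis was possible because each replicate number names a different mouse and the groups share no number. Depth limits Ier2 most, with 69 to 229 counts per mouse.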
